A study of Oryza sativa with 12 samples.

Results

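The monosaccharide and sucrose transporter genes of rice examined here were the genes whose symbol or synonym in the gene table is MST or SUT followed by a number. Of 19454 features on the arrays, 6 matched, the monosaccharide transporter genes MST3 (LOC4342198) and MST5 (LOC4344808) and the sucrose transporter genes SUT1 (LOC4331775), SUT2 (LOC9266530), SUT4 (LOC4331221) and SUT5 (LOC4329756). Each had 1 probe. The table also listed SUT2 as a synonym of LOC4331221, which is called SUT4 here after its other synonym. Names rest on annotation alone, and cross-hybridization within these families was not tested.

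Plant cells take up sugars across the plasma membrane through proton-coupled carriers. MST proteins are hexose carriers of the sugar transporter protein family, which bring in the glucose and fructose that cell wall invertases release from sucrose. SUT proteins carry intact sucrose, either into the cell across the plasma membrane or out of the vacuole across the tonoplast. In rice cells grown in suspension, sugar in the medium is the carbon source, and its loss is known to induce alpha-amylase genes such as RAmy3D and RAmy3E.

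Each of 12 Agilent arrays compared suspension-cultured rice cells held in sucrose-free Murashige and Skoog medium, labelled with Cy5, with control cells labelled with Cy3. There were 4 groups of 3 arrays. In 3 of them, cells without sucrose for 12, 24 or 48 h were set against cells given 3% sucrose for an equal time. In the fourth, cells without sucrose for 12 h were set against cells that also lacked sucrose but had 88 mM sorbitol, the osmotic control. The labels gave no cultivar, tissue of origin or separate cultures for the numbered arrays, and a p-value here covers no more than array-to-array variation, possibly technical.

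Values below are on the log2 scale, starved cells divided by their control, with mean ± SD over arrays. A value of 1 is a doubling. Adjusted p-values come from limma's moderated test fitted over all features, and a gene is said to have risen or fallen where its adjusted p is under 0.05. The direction was taken from the dye labels, since the ratios did not state it. RAmy3E rose against sucrose, at 2.93 ± 1.06, 3.17 ± 1.33 and 4.74 ± 0.70 after 12, 24 and 48 h (n = 3 each). RAmy3D also rose, at 2.34 ± 1.36, 2.11 ± 0.51 and 2.62 ± 0.57, although one of its 2 probes stayed between 0.23 and 0.64. Its 24 h call was lost without 24 h replicate 2 (adjusted p = 0.0538). For sorbitol the direction rests on the dyes alone. A ratio holds no level, so levels of different genes could not be compared, and fewer cells of a type cannot be told apart from less RNA per cell. No array had swapped dyes, so a probe's dye bias remains in its mean ratio.

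Arrays differed in quality. Correlations between arrays of a group ran from 0.291 to 0.795 across features, which are not independent replicates. Blank cells made up 13.6% of 48 h replicate 2 and 0 to 5.94% of the other arrays. The SD over probes was 0.64 to 1.26 on arrays against sucrose and 0.30 to 0.38 on those against sorbitol. The marker lists of other cell types gave ratios only. Of 5 endosperm storage protein genes none was called at 12 or 24 h and 1, GLB1, fell at 48 h (-0.79 ± 0.92, adjusted p = 0.0449), named after its value was seen. Over all tested features 9.29%, 8.67% and 26.1% were called after 12, 24 and 48 h, with 13.3% lower at 48 h. The 48 h arrays gave -1.84, -0.31 and -0.21 for GLB1, and its call was lost in some alternative fits (adjusted p up to 0.439). The list medians were 0.02, -0.17 and -0.05 after 12, 24 and 48 h. Of 2 leaf genes, 1 had enough values to be tested against sucrose, and it was not called (CAB1R, 0.80, 0.52 and 0.35 after 12, 24 and 48 h). Their part in the transporter results was not tested.

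Against sucrose, MST3, SUT1 and SUT5 stood higher in starved cells, SUT2 stood lower, and SUT4 and MST5 stayed near 0. After 12 h 3 of 6 genes had risen and 1 had fallen, where 9.29% of all tested features were called, 5.18% higher and 4.11% lower. Without 12 h replicate 1, only SUT1 was called higher and none lower, and the share called over all features was 2.11%. After 24 h the counts were again 3 and 1, where 8.67% of features were called, 4.78% higher and 3.89% lower. After 48 h 2 of the 5 genes tested had risen and 1 had fallen, where 26.1% of features were called, 12.8% higher and 13.3% lower. The median of the tested transporter genes was 1.05, 1.37 and 1.44 at the 3 times, and that of all features lay between -0.0003 and 0.01. The 48 h median leaves out MST5 (mean 0.20, n = 2, not tested) and is the mean of SUT5, which was not called. It therefore cannot be read as a rise from 24 h.

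**Figure D1:**
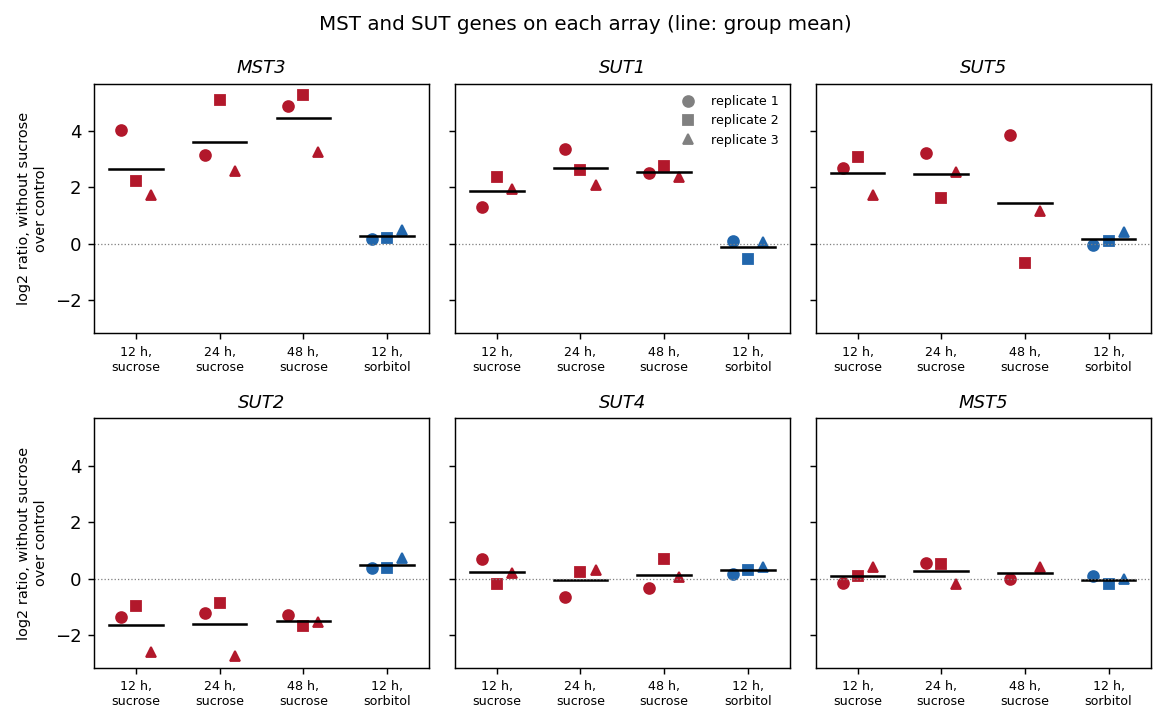
Log2 ratios, starved cells over control (vertical axis), for the 6 MST and SUT genes in 4 groups of 3 arrays, with 1 marker shape per replicate number and a line at each group mean. MST3 and SUT1 lie above 1 on all 9 arrays against sucrose, SUT2 lies below 0 on all 9, and SUT5 at 48 h spreads from -0.68 to 3.86.

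MST3, a plasma membrane hexose carrier, had the highest mean ratio of the 6 genes at each time against sucrose, though not on every array. On the 12 h arrays its log2 ratios were 4.02, 2.24 and 1.74 for replicates 1, 2 and 3. They were 3.13, 5.08 and 2.56 on the 24 h arrays and 4.88, 5.28 and 3.25 on the 48 h arrays. All 9 were positive, the 3 times overlapped, and replicate 3 was the lowest at each time.

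The means of MST3 were 2.67 ± 1.20 after 12 h (6.35-fold, adjusted p = 0.00768), 3.59 ± 1.32 after 24 h (12.1-fold, adjusted p = 0.0014) and 4.47 ± 1.08 after 48 h (22.1-fold, adjusted p = 0.000128; n = 3 each). By mean ratio it stood 52nd of 18270 tested features at 12 h, 18th of 19003 at 24 h and 12th of 16916 at 48 h. On the arrays against sucrose 99.0 to 99.9% of features had a lower ratio. The 12 h call was lost without 12 h replicate 1, where the mean was 1.99 (adjusted p = 0.0963). No single array ended the 24 h or 48 h call, with adjusted p up to 0.0166 and 0.00258.

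No difference of MST3 between times was called over all features. The 24 h mean exceeded the 12 h mean by 0.93 (95% interval -0.63 to 2.48), the 48 h mean exceeded the 24 h mean by 0.87 (-0.68 to 2.43), and the 48 h mean exceeded the 12 h mean by 1.80 (0.25 to 3.35). Adjusted p-values were 0.983, 0.999 and 0.412, and the last had an unadjusted p of 0.0266 in limma's test. Same-numbered arrays at 24 and 48 h deviated together, and from one to the other MST3 gained 1.75, 0.19 and 0.68 on numbers 1, 2 and 3. With these numbers as a block and only those 6 arrays in the fit, the adjusted p was 0.809.

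SUT1, a plasma membrane sucrose carrier known for phloem transport and for the germinating seed, rose at all 3 times, with closer agreement between arrays than MST3 or SUT5. Its log2 ratios were 1.29, 2.36 and 1.93 at 12 h, 3.35, 2.62 and 2.09 at 24 h and 2.51, 2.77 and 2.37 at 48 h. The lowest of the 9 was a ratio above 2-fold. The 12 h and 48 h arrays did not overlap, but the difference between these times was not called. The share of all features without such overlap was not counted.

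SUT1 averaged 1.86 ± 0.54 (3.63-fold, adjusted p = 0.00134), 2.69 ± 0.63 (6.45-fold, adjusted p = 0.000158) and 2.55 ± 0.20 (5.87-fold, adjusted p = 5.95e-05) after 12, 24 and 48 h (n = 3 each). It kept all 3 calls without any single array, with adjusted p up to 0.0118, 0.00229 and 0.00118. The difference of 24 minus 12 h was 0.83 (95% interval 0.05 to 1.61, unadjusted p = 0.0388) and did not pass over all features (adjusted p = 0.983). That of 48 minus 12 h was 0.69 (-0.09 to 1.47, adjusted p = 0.532).

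SUT5, which encodes another sucrose-proton carrier, had log2 ratios of 2.68, 3.07 and 1.73 at 12 h and 3.21, 1.61 and 2.56 at 24 h. At 48 h they were 3.86, -0.68 and 1.15. The arrays at 12 and 24 h were all high, and at 48 h replicate 2 alone was below 0.

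SUT5 rose by 2.49 ± 0.69 after 12 h (5.63-fold, adjusted p = 0.0246) and 2.46 ± 0.80 after 24 h (5.5-fold, adjusted p = 0.0273; n = 3 each). At 48 h it averaged 1.44 ± 2.28 and did not pass (adjusted p = 0.0973). Without 48 h replicate 2, the array with most blanks, the 48 h mean was 2.51 (adjusted p = 0.0172). The part of that array in the result was not tested further. The 12 h call was lost without 12 h replicate 1 or 2 (adjusted p = 0.152 and 0.115), and the 24 h call without any one of the 24 h arrays (adjusted p = 0.171, 0.0664 and 0.061).

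SUT2, known in rice as a tonoplast carrier that releases sucrose from the vacuole, was the one gene of the 6 that fell. Its log2 ratios were -1.37, -0.98 and -2.61 at 12 h, -1.23, -0.86 and -2.76 at 24 h and -1.28, -1.68 and -1.54 at 48 h. All 9 were below 0, with replicate 3 the lowest at 12 and 24 h.

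SUT2 averaged -1.65 ± 0.85 (3.14-fold lower, adjusted p = 0.0121), -1.62 ± 1.01 (3.07-fold lower, adjusted p = 0.0133) and -1.50 ± 0.20 (2.83-fold lower, adjusted p = 0.00829) after 12, 24 and 48 h (n = 3 each). The means differed between times by at most 0.15, and 48 minus 12 h had a 95% interval of -0.90 to 1.20. Each call depended on single arrays. It was lost at 12 h without replicate 1 or 3 (adjusted p = 0.0602 and 0.0671), at 24 h without replicate 3, where the mean was -1.04 (adjusted p = 0.0515), and at 48 h without replicate 2 (adjusted p = 0.0705).

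SUT4, a further sucrose carrier gene, gave 0.69, -0.19 and 0.21 at 12 h, -0.66, 0.24 and 0.30 at 24 h and -0.34, 0.71 and 0.05 at 48 h. Signs were mixed at each of these times. The means were 0.24 ± 0.44, -0.04 ± 0.54 and 0.14 ± 0.53 (n = 3 each), with adjusted p of 0.593, 0.946 and 0.71. In the fit over 12 arrays, the 95% intervals of -0.30 to 0.77, -0.57 to 0.50 and -0.39 to 0.67 leave out a 2-fold change either way. They rest on a spread shared with the sorbitol arrays, where the SD of SUT4 was 0.11. Intervals from the arrays of each time alone are not given here.

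MST5, a hexose carrier gene known from the flower and pollen of rice, gave -0.17, 0.08 and 0.41 at 12 h and 0.54, 0.50 and -0.21 at 24 h. At 48 h replicate 2 was blank and the other arrays gave -0.0003 and 0.40, so it was not tested. The means were 0.11 ± 0.29 and 0.28 ± 0.42 (n = 3 each; adjusted p = 0.78 and 0.402) and 0.20 ± 0.29 (n = 2). The 95% intervals at 12 and 24 h, -0.33 to 0.54 and -0.15 to 0.71, also leave out a 2-fold change. They too rest on the spread shared with the sorbitol arrays, where the SD of MST5 was 0.15. Signal over background was unknown here, so a ratio near 0 may come from a probe with little signal.

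In the order of mean ratios, MST3, SUT5 and SUT1 overlapped at 12 h and stood clear of SUT4 and MST5, which stood clear of SUT2. The order was the same at 24 h except that SUT1 came before SUT5 and MST5 before SUT4. At 48 h MST3 stood clear of SUT1, while SUT5 overlapped with SUT1 above it and MST5 below it. SUT5 also overlapped with MST3 at 48 h, as its highest array (3.86) lay above the lowest of MST3 (3.25).

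**Figure D2:**
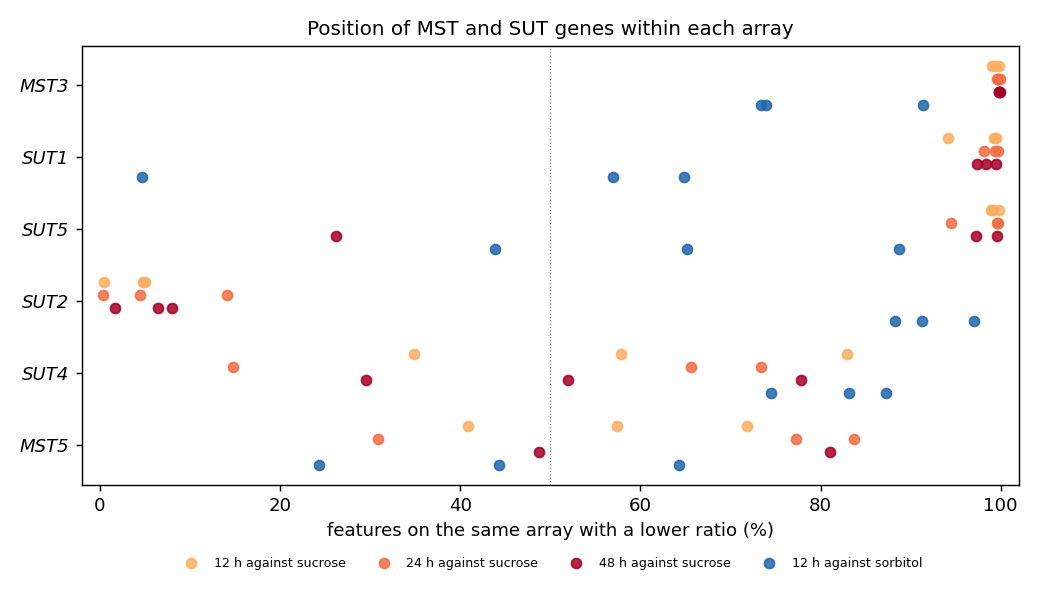
Share of the features on an array with a lower log2 ratio than the gene (horizontal axis, percent), with 1 point per array and 1 colour per group, for the 6 MST and SUT genes. MST3 lies between 99.0 and 99.9% on all 9 arrays against sucrose and between 73.4 and 91.4% against sorbitol. SUT2 lies at 14.1% or below against sucrose and between 88.2 and 97.1% against sorbitol.

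The sorbitol arrays asked whether osmotic change accounts for differences seen against sucrose, since both sides of them lacked sucrose. None of the 6 genes was called (0 at an adjusted p under 0.05, 0 at an unadjusted p under 0.05, limma), where 0.0515% of all features were. MST3 gave 0.16, 0.19 and 0.48, SUT1 gave 0.10, -0.53 and 0.07, and SUT5 gave -0.04, 0.11 and 0.42. For each of these 3 genes, the 12 and 24 h arrays against sucrose lay above all sorbitol arrays. At 48 h this held for MST3 and SUT1, and SUT5 overlapped. The share of all features whose arrays separated in this way was not counted.

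SUT2 gave 0.36, 0.38 and 0.72 against sorbitol, so its ratio was positive on all 3 of these arrays and negative on all 9 against sucrose. How many of all features changed sign in this way was not counted either. SUT4 was also positive on all 3, at 0.17, 0.30 and 0.39, and MST5 gave 0.10, -0.21 and -0.03. The means were 0.49 ± 0.20 for SUT2, 0.29 ± 0.11 for SUT4, 0.28 ± 0.17 for MST3, 0.17 ± 0.23 for SUT5, -0.05 ± 0.15 for MST5 and -0.12 ± 0.35 for SUT1 (n = 3 each), and each gene overlapped with its neighbours in this order.

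Which of these ratios were called depended on the fit. In the fit over 12 arrays all groups share an estimate of a gene's spread between arrays. This SD was 0.17 against sorbitol and 1.08 to 1.32 against sucrose for MST3, and 0.11 and 0.44 to 0.54 for SUT4. For SUT5 it was 0.23 and 0.69 to 2.28, and for MST5 0.15 and 0.29 to 0.42. The groups were not separated for SUT2 (0.20 and 0.20 to 1.01) or SUT1 (0.35 and 0.20 to 0.63). When the sorbitol arrays alone were fitted, SUT2 (adjusted p = 0.00292), SUT4 (adjusted p = 0.0208) and MST3 (adjusted p = 0.0333) were called higher, 3 of 6 genes, where 35.9% of all features were called and 18.3% were called higher.

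The difference between the 12 h arrays against sucrose and those against sorbitol is the ratio of sorbitol to sucrose cells, if starved cells of both sets were alike. SUT1 was higher by 1.98 (95% interval 1.20 to 2.76, adjusted p = 0.0216) in this difference, the 1 call among 6 genes, where 1.5% of all features were called and 1.04% were called higher. This call was lost without any one sorbitol array or without 12 h replicate 3, with adjusted p of 0.0629 to 0.137. For MST3 the difference was 2.39 (0.84 to 3.94, adjusted p = 0.132) and for SUT5 2.33 (0.47 to 4.19, adjusted p = 0.222). SUT2 differed by -2.14 (-3.19 to -1.09, adjusted p = 0.0517), and with the replicate number as a block it passed (adjusted p = 0.0267). Same-numbered arrays of these 12 h groups did not deviate together, however (r = -0.045 to 0.018). The block also raised the calls over all features from 273 to 380. When only the 6 arrays of this difference were fitted, MST3, SUT1, SUT2 and SUT5 all passed, with adjusted p of 0.0449, 0.0188, 0.0279 and 0.0151. In that fit 871 of 18260 features were called, 552 higher and 319 lower, against 273 in the fit over 12 arrays. SUT4 differed by -0.05 (-0.80 to 0.70) and MST5 by 0.15 (-0.46 to 0.77).

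Differences between times gave no call among the transporter genes. At 24 minus 12 h 0 of 6 passed (limma; 1, SUT1, at an unadjusted p under 0.05), at 48 minus 24 h 0 of 5 (0 unadjusted), and at 48 minus 12 h 0 of 5 (1, MST3, unadjusted). Of all features 0%, 0% and 0.00594% were called, so these comparisons had few calls anywhere.

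Other genes of sugar transport were read from a list of gene symbols, of which 17 were measured. It held SWEET genes, whose proteins let sugars move down their gradient, and plastid translocators of phosphoenolpyruvate (PPT) and triose phosphate (TPT). It also took in PMT and TMT by symbol, although the synonyms of these genes are those of an acyltransferase and a tocopherol methyltransferase. Of 14 tested genes 2 had risen and 1 had fallen at 12 h, 2 and 2 at 24 h, and of 12 tested genes 3 had risen and 5 had fallen at 48 h. Over all features 9.29%, 8.67% and 26.1% were called at these times. The list medians were -0.34, -0.20 and -0.12.

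SWEET1b (LOC4338851) rose by 3.95 ± 0.72, 5.37 ± 0.94 and 5.18 ± 2.29 after 12, 24 and 48 h, and its means exceeded those of MST3 at each time. SWEET4 (LOC4329093) rose by 2.04 ± 0.50, 2.34 ± 0.73 and 2.47 ± 0.65. PPT3 (LOC4327644) averaged -1.0 ± 1.52 and -1.72 ± 0.88 without a call at 12 and 24 h and fell at 48 h (-2.26 ± 1.83, adjusted p = 0.0179; n = 3 for each of these values). The PPT3 call was lost without 48 h replicate 1, where the mean was -1.35 (adjusted p = 0.149), or without replicate 2 (adjusted p = 0.1001). The other genes called, named after their values were seen, were SWEET14, which rose at 48 h, SWEET1a, which fell at all 3 times although its 2 probes disagreed (-1.92 and -0.37 at 12 h), PPT1, which fell at 24 and 48 h, and PPT2 and TPT, which fell at 48 h. The calls of SWEET14, PPT2 and TPT were lost in some alternative fits, with adjusted p up to 0.106, 0.0951 and 0.28. Those of SWEET1a at 12 and 24 h and of PPT1 at 24 h were also lost, with adjusted p up to 0.122, 0.0826 and 0.0657. Against sorbitol none of 17 was called.

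Enzymes through which sucrose and hexoses enter metabolism formed a list of 21 measured genes, sucrose synthases, invertases, hexokinases and fructokinases. Of 19 tested genes 2 had risen and 4 had fallen at 12 h and 1 and 3 at 24 h, and of 17 tested genes 4 had risen and 4 had fallen at 48 h, against the same 9.29%, 8.67% and 26.1% over all features. The list medians were -0.01, 0.23 and 0.22. The hexokinase gene HXK6 (LOC4338010) rose by 2.98 ± 0.46, 2.83 ± 0.29 and 2.53 ± 0.52 after 12, 24 and 48 h (n = 3 each). The gene table also listed HXK6 as a synonym of LOC4326547, called HXK2 here, and HXK4 as a synonym of LOC4326776. SUS1 (LOC4333062), a sucrose synthase gene, fell, at -2.05 ± 0.84, -2.23 ± 0.34 and -3.31 ± 0.42. The hexokinase gene HXK4 (LOC4342654) rose at 48 h (1.84 ± 1.57, adjusted p = 0.0157) and was not called at 12 or 24 h. Without 48 h replicate 2 its mean was 0.97 and the call was lost (adjusted p = 0.181). A further hexokinase gene, HXK2 (LOC4339420), named after its values were seen, fell at all 3 times, at -0.67 ± 0.21, -0.79 ± 0.20 and -1.41 ± 0.50 (n = 3 each). Its 12 h call was lost without any one 12 h array, with adjusted p of 0.0628 to 0.2604, and its 24 h call without 24 h replicate 1 or 2 (adjusted p = 0.085 and 0.182). The other locus named HXK2, LOC4326547, fell at 12 h (-0.64, adjusted p = 0.0411) and 48 h (-0.73, adjusted p = 0.0113). At 24 h LOC4326547 was not called (-0.21, adjusted p = 0.497). Its 12 h call was lost without any one 12 h array. Its 48 h call was lost without 48 h replicate 2 or 3 (adjusted p = 0.0773 and 0.0629).

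**Figure D3:**
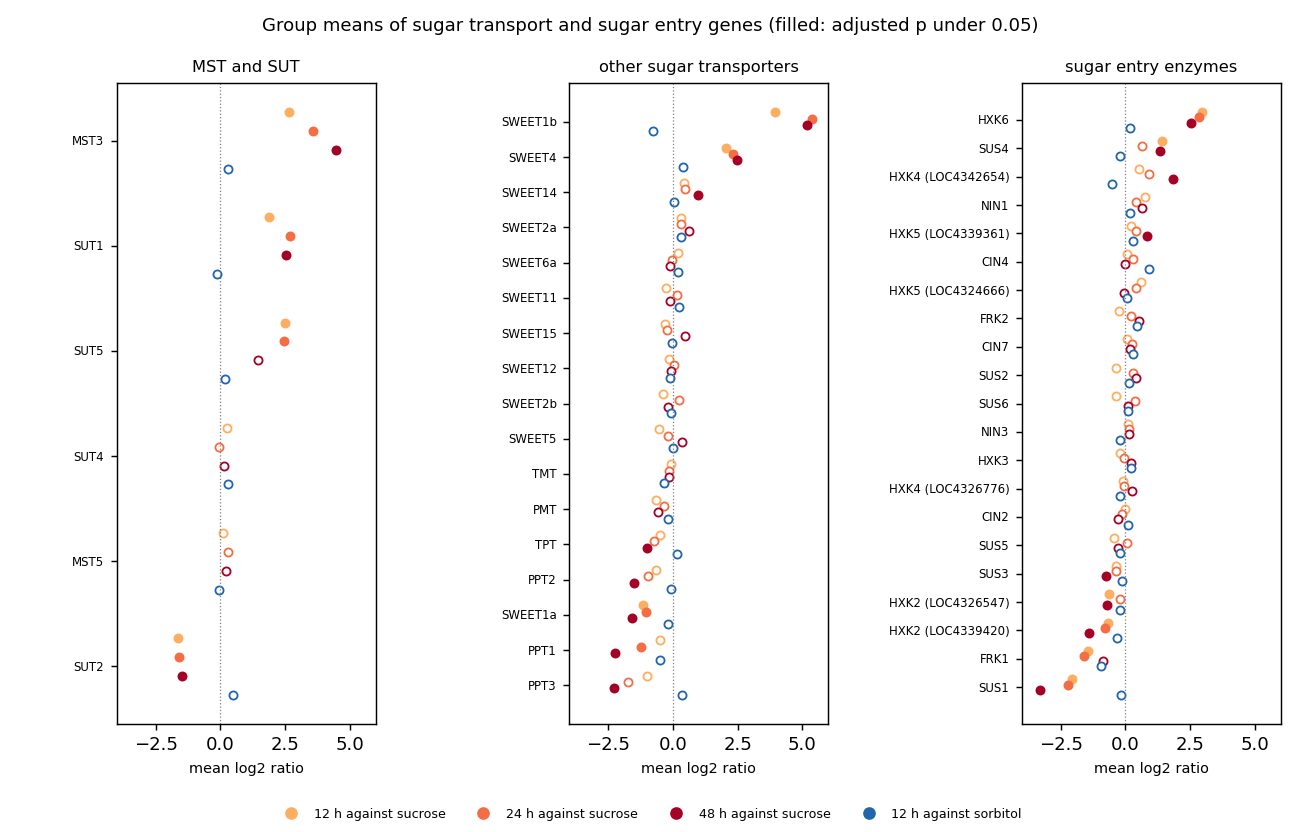
Mean log2 ratios (horizontal axis) of the MST and SUT genes, other sugar transporter genes and sugar entry enzyme genes, with 1 colour per comparison. Filled points have an adjusted p under 0.05 and open points do not or were not tested. SWEET1b, MST3 and HXK6 lie farthest to the right of their panels, and SUT2, PPT3 and SUS1 farthest to the left.

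For the 4 transporter genes called in any comparison, the 5 named genes with the highest Pearson correlation of log2 ratios over the 12 arrays were found among 1849 named genes with a value on every array. These correlations are descriptions. The 12 points share the contrast of sucrose and sorbitol controls and the wide spread of some arrays. For MST3 the genes were IRL1 (LOC4336911, r = 0.968), a chitinase gene (LOC4348631, r = 0.956), the tonoplast aquaporin gene TIP2-2 (LOC4340941, r = 0.954), URH2 (LOC4347891, r = 0.943) and the aldehyde oxidase gene AO-2 (LOC4334382, r = 0.940). Over the 9 arrays against sucrose alone, these r were 0.862 to 0.918. IRL1 averaged 2.13, 3.22 and 3.70 after 12, 24 and 48 h and -0.08 against sorbitol.

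For SUT1 they were TIP3 (LOC4348981, r = 0.954), a tonoplast aquaporin gene, HGO (LOC4339844, r = 0.919), the metallothionein gene MT4A (LOC4352580, r = 0.905), SWEET1b (r = 0.90) and a chitinase gene (LOC4351188, r = 0.898). Over the 9 arrays against sucrose these r fell to between 0.460 and 0.735, lower than for MST3. For SUT2 they were MAN1 (LOC4327860, r = 0.946), the homeobox gene HOX2 (LOC4340070, r = 0.943), the protein phosphatase gene OsPP2C08 (LOC4324182, r = 0.931), MAKIBA3 (LOC4334010, r = 0.921) and JAZ13 (LOC4348531, r = 0.916). JAZ13 averaged 1.62 against sorbitol and -0.03 to 0.13 against sucrose, so a high r here does not mean equal ratios. For SUT5 they were GL2 (LOC4330436, r = 0.923), the zinc transporter gene ZIP3 (LOC4338051, r = 0.922), OsPP2C05 (LOC4325851, r = 0.861), NAC068 (LOC4327485, r = 0.852) and GH3.7 (LOC4341111, r = 0.846). ZIP3 averaged 1.67, 1.54 and 0.78 after 12, 24 and 48 h.

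**Figure D4:**
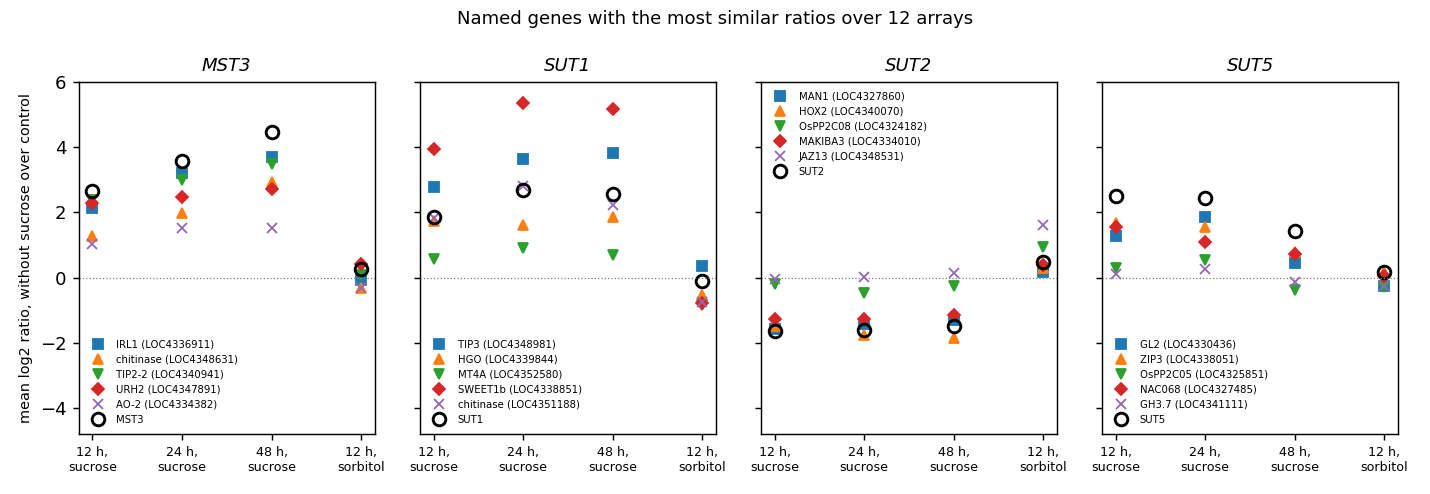
Mean log2 ratios (vertical axis) in the 4 groups for MST3, SUT1, SUT2 and SUT5 (open circles) and for the 5 named genes whose ratios correlated best with each over 12 arrays. The genes beside MST3 have higher means at 24 h than at 12 h, and those beside SUT5 have lower means at 48 h than at 24 h.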

How the data were processed

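The deposited values were natural log ratios of the 2 channels, 1 column per array. The scale was read from the values: 2 arrays bottomed out at a ratio of exactly 0.01 under that reading, and 12 h replicate 1 held 319 natural logs of ratios with a single decimal (tolerance 1e-05) against 79 on a log2 scale. Arrays with few such ratios, the sorbitol arrays among them, were taken to share the scale. What the authors did before depositing these natural log ratios (centring, background, software) is not given in the sources used here. Column medians on the log2 scale ran from -0.03 to 0.11. Values were turned to log2. Blanks (2.41%) were left blank, and a feature was tested where every array compared had a value.

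Of 21495 probes, those with 1 gene in GEO's platform annotation were averaged per gene, giving 15798 genes, all found in the RefSeq table of assembly ASM3414082v1, and 3656 single probes. No coordinates or sequences were used. limma 3.58.1 in R 4.3.3 (lmFit, eBayes) was fitted with 4 group means over 12 arrays, two-sided, with Benjamini-Hochberg adjustment over all features of a comparison. The fit was tested on simulated data. Figures were drawn with matplotlib 3.10.9.

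Same-numbered arrays of 24 and 48 h deviated together (r = 0.443 to 0.566 over 16800 features); the other pairs of groups had at least 1 number with r under 0.1. That pairing is a property of the data, as the labels say nothing of shared batches.

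The members and lists were chosen with earlier results of these data known. The naming rule took all MST and SUT genes, 3 genes per list with the largest mean change where called, RAmy3D and RAmy3E, and 5 similar genes per called member. Alternatives were a replicate block, smaller fits, other scalings, array weights, blanks kept, single probes, another log base and each array left out.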

Additional observations from a re-analysis of the deposited data

Results flagged for a closer look

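Both results below are differences between groups at 12 h, the arrays against sucrose minus the arrays against sorbitol. For SUT1 the difference of 1.98 passed the test (limma adjusted p = 0.0216), with all 3 arrays against sucrose above all 3 against sorbitol. Its adjusted p ran from 0.00178 to 0.137 over the alternatives, and the call was lost in 4 of the 12 fits that left out an array. For SUT2 every array against sucrose was below 0 and every array against sorbitol above 0, a difference of -2.14. Its test missed the threshold (adjusted p = 0.0517, and 0.00175 to 0.231 over the alternatives). The share of all features with arrays separated as for SUT1 or SUT2 was not counted.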

How the results depend on the processing

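For the 6 genes, 45 gene comparisons had a test, and 893 values were computed under alternatives able to change a call. Of these 823 kept direction and side of the threshold, 17 lost the call, 23 gained one and 30 changed sign. Centring the arrays and keeping blanks changed no call of the 6 genes. Single probes and another log base, left out of these counts, cannot, as each gene has 1 probe and a log base rescales all values alike. The causes of the changes were not tested.

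Against sucrose, SUT5 was not called without the sorbitol arrays (2.49 at 12 h, adjusted p = 0.0686, and 2.46 at 24 h, adjusted p = 0.0719), and was called at 48 h with array weights (1.84). SUT2 lost its 24 h call when only those arrays were fitted (-1.62, adjusted p = 0.105), which left 0 genes called lower. Against sorbitol, SUT2 was called with only those arrays (0.49), quantile normalization (0.98) and array weights (0.43), MST3 with only those arrays (0.28), and SUT4 with only those arrays (0.29) and array weights (0.27), giving 3, 1 and 2 genes called higher. These last settings raised the calls of all features from 10 to 6969, 3942 and 7955.

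In sucrose minus sorbitol, SUT2 was called with the replicate block (-2.14), only the arrays compared (-2.14), equal spread (-2.17), quantile normalization (-2.48) and array weights (-1.72), so 1 gene was called lower in each. MST3 was called with only the arrays compared (2.39), equal spread (1.74), quantile normalization (2.07) and array weights (2.41), and SUT5 with only the arrays compared (2.33), quantile normalization (2.20) and array weights (2.68). These gave 3, 2, 3 and 3 genes called higher for only the arrays compared, equal spread, quantile normalization and array weights. In that order, these settings raised the calls over all 18260 features from 273 to 871, 1448, 2229 and 1740. The replicate block raised them to 380. The replicate block changed no other call, and with the 24 and 48 h arrays alone, chosen after seeing the data, it gave 0.87 for MST3 at 48 minus 24 h. As a hint from the data and not the design, 12 h replicates 1 and 2 correlated best with the other's number at 24 h (r = 0.398 and 0.524) and 48 h (r = 0.373 and 0.334), and replicate 3 with its own. No pairing was crossed.

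Uncalled differences between times changed sign. For 24 minus 12 h SUT2 gave -0.24 with equal spread and -0.022 with array weights, and SUT5 0.15 with either. With array weights SUT2 gave -0.16 at 48 minus 24 h and -0.18 at 48 minus 12 h. With quantile normalization SUT1 gave -0.016 at 48 minus 12 h.

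With each array left out in turn, values ranged as follows. At 12 h against sucrose they were 1.99 to 3.13 for MST3, 2.21 to 2.87 for SUT5, -1.99 to -1.17 for SUT2 and -0.047 to 0.24 for MST5, with 1 to 3 genes called higher and 0 to 1 lower. At 24 h they were 2.09 to 2.88 for SUT5, -1.99 to -1.04 for SUT2 and -0.21 to 0.27 for SUT4, with 0 to 1 called lower. At 48 h they were 0.24 to 2.51 for SUT5, -1.61 to -1.41 for SUT2 and -0.14 to 0.38 for SUT4, with 0 to 1 called lower. Against sorbitol they were -0.12 to 0.031 for MST5 and -0.23 to 0.084 for SUT1. In sucrose minus sorbitol they were 1.73 to 2.26 for SUT1, -2.48 to -1.66 for SUT2 and -0.28 to 0.16 for SUT4, with 0 to 1 called either way. For 24 minus 12 h they were -0.44 to 0.61 for SUT2, -0.42 to 0.39 for SUT5 and -0.49 to 0.035 for SUT4. For 48 minus 24 h they were -0.46 to 0.49 for SUT2, -0.43 to 0.20 for SUT1, -2.22 to 0.047 for SUT5 and -0.13 to 0.42 for SUT4. For 48 minus 12 h they were -0.33 to 0.49 for SUT2, -2.26 to 0.013 for SUT5 and -0.38 to 0.14 for SUT4.

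The number of arrays and the unknown signal over background limit every value.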
